A study of Mus musculus with 20 samples.

Results

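The mitochondrial carrier family, Slc25, was followed across bone marrow populations of oxymetholone-fed and placebo-fed mice by RNA-seq. A gene was a member where its symbol in the deposited count table was Slc25a followed by a number, and 44 of the 20377 symbols of the table met that rule. Where a symbol had several transcript rows, which held for 6 members, the row with the largest total was used. Family members that carry other symbols (the uncoupling proteins Ucp1, Ucp2 and Ucp3, and Mtch1 and Mtch2) were kept apart and are given as a separate list.

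All animals were male 129S4 mice, 4 months of age, either Fancd2-/- or wild-type; Fancd2 encodes a protein of the Fanconi anemia DNA repair pathway, and the labels name no further allele in either genotype. From weaning at 3 to 4 weeks they were fed for 3 months on chow with 300 mg of oxymetholone per kg of diet, an anabolic androgen, or on placebo chow. The erythroblasts were sorted as Ter119+/CD71high/FSChigh cells, the proerythroblasts and basophilic erythroblasts, from 3 oxymetholone-fed and 3 placebo-fed wild-type mice, 1 mouse per library. The KSL cells were sorted as cKit+ Sca1+ Lin- cells, the stem and progenitor cells, each library being a pool of 5 mice: 3 libraries of Fancd2-/- mice on oxymetholone, 3 of Fancd2-/- mice on placebo, 3 of wild-type mice on oxymetholone and 3 of wild-type mice on placebo. Whole marrow of placebo-fed mice gave 1 Fancd2-/- and 1 wild-type library, each combined from 5 mice. Genotype was therefore compared in KSL cells and, without replication, in whole marrow.

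Slc25 proteins carry metabolites, nucleotides, cofactors and ions across the mitochondrial inner membrane, and a few sit in other membranes. In the erythroid lineage the family is known for supplying heme synthesis: mitoferrin 1 (Slc25a37) brings iron into the matrix, where it is inserted into protoporphyrin, and Slc25a38 is needed for the glycine that starts the pathway. In every cell that respires, the ADP/ATP carriers export ATP in exchange for ADP, and the phosphate carrier Slc25a3 supplies the phosphate.

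Total counts ran from 17177255 to 20816422 in the 6 erythroblast libraries and from 10777293 to 121347117 in the 12 KSL libraries, and were 106889481 in the Fancd2-/- and 100192496 in the wild-type whole marrow library. Levels below are in CPM, counts scaled to a common library total and corrected by TMM (trimmed mean of M-values) over all 20 libraries, which gave erythroblasts factors of 0.512 to 0.561 and KSL libraries factors of 1.36 to 1.46. Fancd2 itself ranged from 4.65 to 6.15 CPM in the Fancd2-/- KSL pools, against 12.1 to 16.5 CPM in the wild-type pools, and whole marrow gave 8.44 CPM for Fancd2-/- and 31.1 CPM for wild-type. The 10 erythroid markers summed to 108000 to 130000 CPM in erythroblasts and 43.1 to 207 CPM in KSL cells. The 9 KSL markers summed to 0.901 to 3.07 CPM in erythroblasts and 2150 to 3440 CPM in KSL cells. Fancd2-/- placebo replicate 3 stood apart from the other KSL libraries: its first principal component score was 37.2, against -15.0 to 5.97 in the other 11, its levels fell with transcript length (slope -0.237 log2 per doubling, against -0.0417 to 0.102), and its 6 stromal markers summed to 72.9 CPM, against 10.5 to 19.6 CPM in the others. Fancd2-/- placebo replicate 2 held the highest erythroid marker sum of the KSL set, 207 CPM, against 43.1 to 75.7 CPM in the other 11.

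The family as a whole took 1.06 to 1.15% of all counts in the 6 erythroblast libraries, 0.319 to 0.36% in the 12 KSL libraries, and 0.342% and 0.364% in Fancd2-/- and wild-type whole marrow. A single member made up most of the erythroblast share. Slc25a37 held 79.8 to 81.2% of the family's counts in erythroblasts, 1.47 to 2.48% in KSL cells, and 39.0% and 41.1% in Fancd2-/- and wild-type marrow. In KSL cells the largest part, 22.6 to 26.7% of the family's counts, belonged to the phosphate carrier Slc25a3, which held 1.4 to 1.61% in erythroblasts. These shares leave out the family members under other symbols. Of those, Ucp2 ranged from 6260 to 6820 CPM in erythroblasts and from 458 to 691 CPM in KSL cells.

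**Figure D1:**
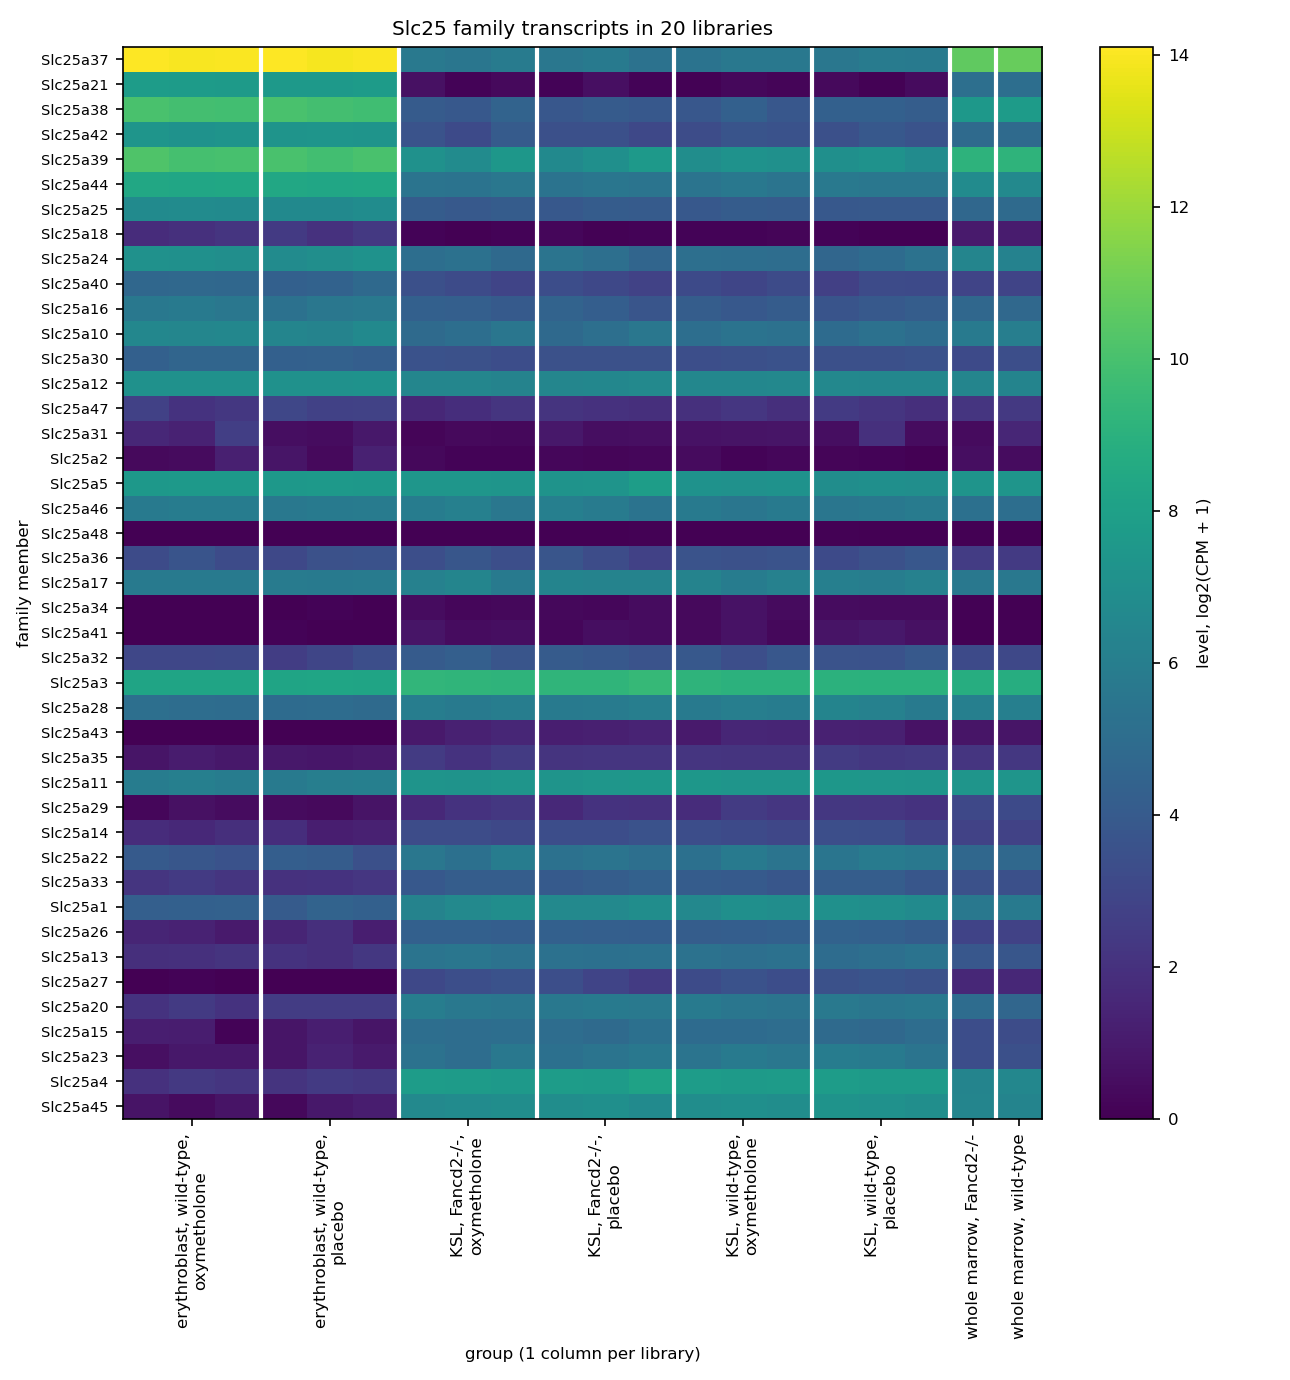
Level of the Slc25 members (rows; 1 of the 44 is left out) in each of the 20 libraries (columns, grouped by population, genotype and diet), as log2(CPM + 1) in colour; rows are ordered by the erythroblast level minus the KSL level. Slc25a37 is the brightest row in erythroblasts, while Slc25a45, Slc25a4 and Slc25a23 at the foot of the map are bright in KSL cells and dark in erythroblasts.

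Levels of different members were compared per kilobase of transcript. In erythroblasts Slc25a37 came first at 3970 ± 209 CPM per kb (SD, n = 6), followed by Slc25a39 at 614 ± 52.2, Slc25a38 at 541 ± 42.8, Slc25a3 at 189 ± 2.32 and Slc25a5 at 151 ± 3.79. The ranges of Slc25a39 (548 to 705 CPM per kb) and Slc25a38 (489 to 592) over the 6 libraries overlapped, whereas those of the other neighbours among these 5 did not. The order of Slc25a39 and Slc25a38 within single libraries was not compared. In KSL cells the order began with Slc25a3 at 357 ± 32.6 CPM per kb (SD, n = 12), Slc25a4 at 170 ± 15.9, Slc25a5 at 124 ± 22.7, Slc25a11 at 96.5 ± 4.94 and Slc25a39 at 80.6 ± 15.3. There, the ranges of Slc25a4, Slc25a5, Slc25a11 and Slc25a39 each overlapped with the next. In each of the 12 KSL libraries, though, Slc25a4 made up 53.5% or more of the counts per kb of itself and Slc25a5. That share rests on the transcript lengths used. In whole marrow Slc25a37 (381 in the Fancd2-/- library and 427 CPM per kb in the wild-type library), Slc25a39 (334 to 342 over both libraries) and Slc25a3 (269 to 274) led.

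Erythroblasts were compared with KSL cells of wild-type mice separately in oxymetholone-fed and in placebo-fed animals, comparisons that share no library. Most genes of the table differed between these populations, and the members did so about as often as other genes. Of all genes tested, 91.5% were called in one direction or the other on oxymetholone and 91.0% on placebo. On oxymetholone, 16 of the 40 members tested were called higher in erythroblasts, against 37.5% of all 12518 genes tested, and 21 were called lower, against 53.9%. On placebo, 16 of 41 were called higher, against 37.2% of all 12538 genes tested, and 22 lower, against 53.7% (edgeR quasi-likelihood test, Benjamini-Hochberg adjusted p under 0.05). The shares of members called were therefore near the background, and the counts themselves are no result about the family. The median member difference was -0.55 log2 on oxymetholone and -0.75 on placebo, beside medians of -0.65 and -0.67 over all genes tested. In bulk RNA, fewer cells of a type and less RNA per cell cannot be told apart, and a level here is a share of each population's RNA.

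Scaling moved the whole comparison: without the TMM factors, on library totals alone, the median of all genes was -2.07 log2 on oxymetholone and -2.08 on placebo, and members are to be read against that shift. Library totals called 19.0% of all genes higher and 74.5% lower on oxymetholone, and 19.0% and 73.8% on placebo. Median-of-ratios size factors called 40.1% higher and 51.7% lower on oxymetholone, and 39.5% and 52.0% on placebo. With TMM, with median-of-ratios size factors and with library totals alike, and in both diets, 9 members were higher in erythroblasts: Slc25a18, Slc25a21, Slc25a24, Slc25a25, Slc25a37, Slc25a38, Slc25a39, Slc25a42 and Slc25a44. Under the same conditions 20 were lower, among them Slc25a1, Slc25a3, Slc25a4, Slc25a11, Slc25a13, Slc25a14, Slc25a15, Slc25a20, Slc25a22, Slc25a23, Slc25a26, Slc25a27, Slc25a28, Slc25a29, Slc25a32, Slc25a33, Slc25a35, Slc25a43 and Slc25a45. Slc25a5, Slc25a12 and Slc25a30 were called higher with TMM in both diets and lay below 0 on library totals. With TMM no member was called in opposite directions in the 2 diets.

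**Figure D2:**
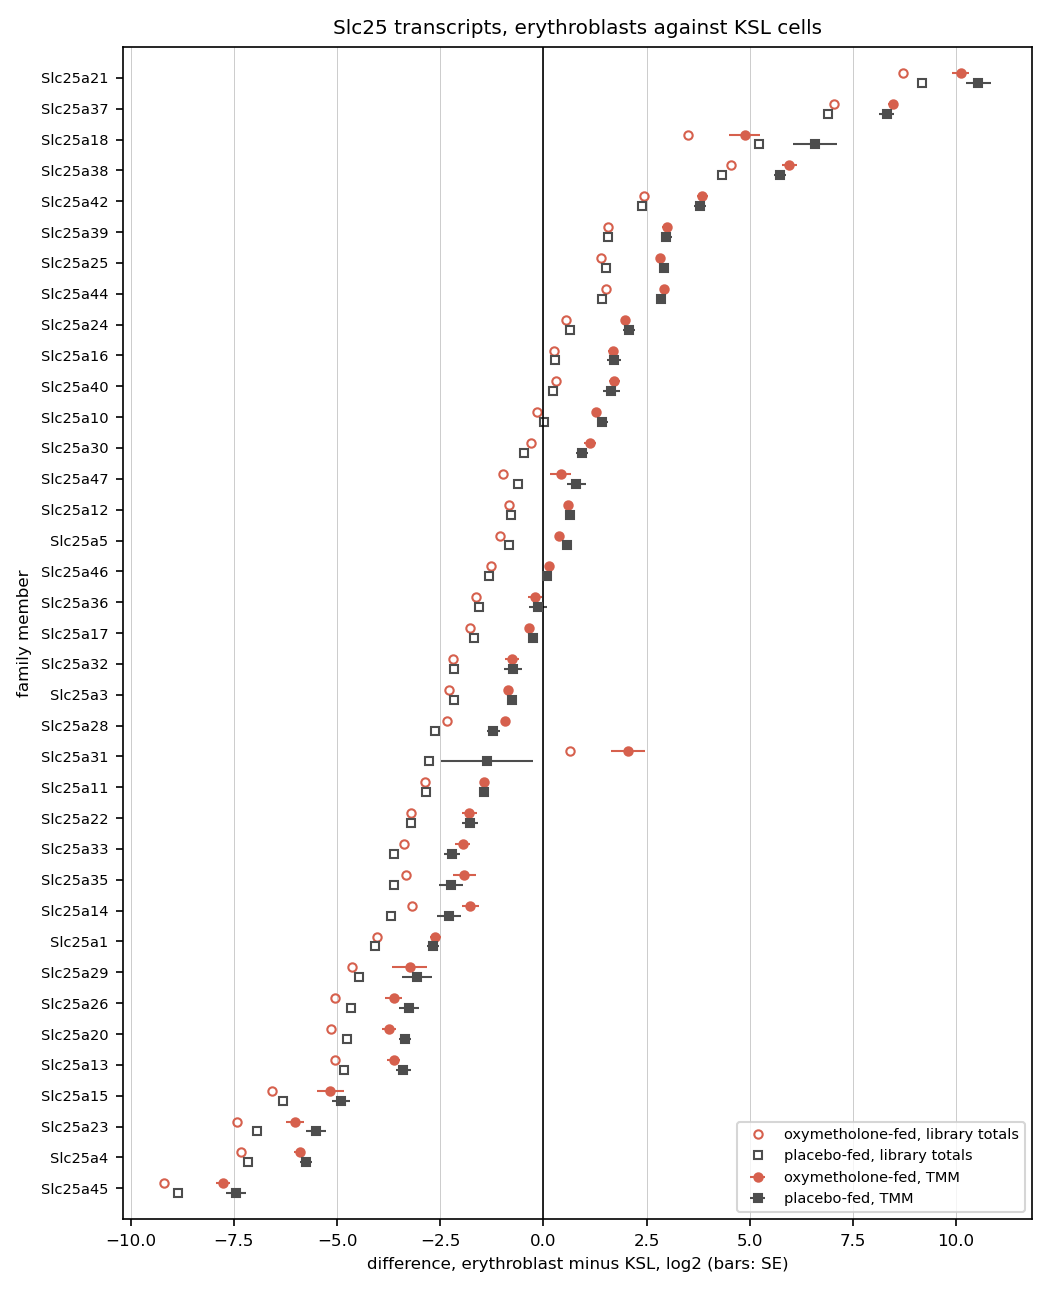
Difference in level, erythroblast minus KSL, in log2 with its SE, for the members tested, in oxymetholone-fed (circles) and placebo-fed (squares) wild-type mice, with TMM scaling (filled) and library totals (open); Slc25a27, Slc25a41 and Slc25a43, at 0 to 1 counts in an erythroblast group, and 1 further member are left out. Slc25a21 and Slc25a37 lie highest and Slc25a45, Slc25a4 and Slc25a23 lowest in both diets, and the open symbols sit to the left of the filled ones.

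The mitoferrins, which carry iron into mitochondria, differed in opposite directions. Slc25a37, mitoferrin 1 (chr14:69859908-69903160, minus strand, mm9), stood at 17400, 15800 and 16500 CPM in erythroblasts on oxymetholone and at 41.1, 48.4 and 49.2 CPM in wild-type KSL cells on oxymetholone. On placebo it stood at 17600, 15400 and 16400 CPM in erythroblasts and 46.9, 57.2 and 52.9 CPM in KSL cells. Every erythroblast library lay far above every KSL library, with log2 differences of 8.48 ± 0.12 (SE) on oxymetholone and 8.32 ± 0.18 on placebo (edgeR adjusted p = 1.74e-14 and 4.51e-15). Slc25a28, mitoferrin 2, the broadly expressed form (chr19:43738292-43749371, minus strand), was at 34.1, 32.0 and 30.4 CPM in erythroblasts on oxymetholone, against 55.7, 64.8 and 60.8 CPM in KSL cells. On placebo it was at 29.7, 30.8 and 27.9 CPM in erythroblasts, against 80.6, 71.1 and 54.2 CPM in KSL cells. The groups did not overlap in either diet, and Slc25a28 was lower in erythroblasts by log2 differences of -0.92 ± 0.11 on oxymetholone and -1.21 ± 0.15 on placebo (edgeR adjusted p = 2.59e-06 and 1.47e-06).

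A share within the pair does not depend on the scaling between libraries. Of the mitoferrin counts per kb, Slc25a37 made up 99.4 to 99.5% in the 6 erythroblast libraries, 17.5 to 26.3% in the 12 KSL libraries, and 89.7% and 90.8% in Fancd2-/- and wild-type whole marrow. Mitoferrin 2 was thus the larger part in every KSL library and mitoferrin 1 in every other library.

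The promoters of Slc25a38 and Slc25a39, heme-related members that were high in erythroblasts, and of Slc25a4, which was among the members furthest below KSL cells, are printed here, since those members differ widely between the populations. Each runs from 250 bases before to 50 bases after the start of the deposited transcript in mm9, on the strand of the gene. Capitals mark matches on either strand to CCAAT or to CCNCNCCC, a form of the motif bound by Klf1-type factors, whose matches can overlap.
Slc25a38 (chr9:120019267-120019566, plus strand): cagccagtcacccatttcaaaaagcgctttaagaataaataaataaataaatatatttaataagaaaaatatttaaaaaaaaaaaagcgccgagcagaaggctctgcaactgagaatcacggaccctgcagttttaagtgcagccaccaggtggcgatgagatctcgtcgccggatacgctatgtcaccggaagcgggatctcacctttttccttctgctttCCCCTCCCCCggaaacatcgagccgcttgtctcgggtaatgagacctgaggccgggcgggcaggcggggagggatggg
Slc25a39 (chr11:102268782-102269081, minus strand): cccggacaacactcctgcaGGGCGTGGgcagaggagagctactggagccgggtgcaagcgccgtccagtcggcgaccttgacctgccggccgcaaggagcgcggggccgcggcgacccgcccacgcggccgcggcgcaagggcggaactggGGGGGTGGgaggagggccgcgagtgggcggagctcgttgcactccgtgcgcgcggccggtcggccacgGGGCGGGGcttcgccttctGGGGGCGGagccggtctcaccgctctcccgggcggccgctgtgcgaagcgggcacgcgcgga
Slc25a4 (chr8:47296314-47296613, minus strand): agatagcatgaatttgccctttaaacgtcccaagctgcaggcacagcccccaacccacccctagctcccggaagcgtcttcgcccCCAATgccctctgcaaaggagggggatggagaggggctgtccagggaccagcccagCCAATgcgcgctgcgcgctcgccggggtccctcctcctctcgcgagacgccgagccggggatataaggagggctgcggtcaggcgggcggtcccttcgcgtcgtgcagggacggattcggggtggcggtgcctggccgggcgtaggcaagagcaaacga
CCAAT was found 2 times in the Slc25a4 window. CCNCNCCC was found in the Slc25a38 window at 2 overlapping positions and in that of Slc25a39 at 4. Over the family, CCNCNCCC was present in 31 of 44 windows (70.5%), against 58.7% of 20322 promoters, and CCAAT in 23 of 44 (52.3%), against 38.2%. The GATA motif AGATAA was in 0 of 44 windows, against 9.37% of promoters. CCNCNCCC was also found in members lower in erythroblasts, such as Slc25a1, Slc25a3 and Slc25a11. It was not found in Slc25a21 or Slc25a44, which were higher. The 3 printed windows therefore do not stand for the members higher or lower in erythroblasts. These are matches of letters in a short window and say nothing about binding.

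Slc25a38 (chr9:120019517-120033437, plus strand), the glycine carrier whose human counterpart is mutated in a congenital sideroblastic anemia, stood at 1060, 937 and 914 CPM in erythroblasts on oxymetholone, against 13.1, 19.3 and 13.4 CPM in KSL cells. On placebo it stood at 1060, 962 and 875 CPM in erythroblasts, against 18.9, 19.0 and 16.8 CPM in KSL cells. The log2 differences were 5.96 ± 0.18 on oxymetholone and 5.74 ± 0.14 on placebo (edgeR adjusted p = 2.63e-11 and 1.11e-14), with all erythroblast libraries far above all KSL libraries. Slc25a39, which imports glutathione into mitochondria (chr11:102264295-102268831, minus strand), stood at 1190, 996 and 1010 CPM in erythroblasts on oxymetholone, against 121, 145 and 133 CPM in KSL cells. On placebo the values were 1050, 923 and 1050 CPM in erythroblasts and 129, 146 and 111 CPM in KSL cells. Both diets gave nearly the same log2 difference, 2.99 ± 0.11 on oxymetholone and 2.98 ± 0.13 on placebo (edgeR adjusted p = 1.82e-11 and 5.2e-12). Its close relative Slc25a40 was far less abundant, at 24.8, 26.3 and 25.1 CPM in erythroblasts on oxymetholone, against 8.02, 6.83 and 8.41 CPM in KSL cells, and at 18.9, 20.5 and 27.0 CPM in erythroblasts on placebo, against 5.27, 8.26 and 7.83 CPM. Its log2 differences were 1.72 ± 0.13 and 1.65 ± 0.2 (edgeR adjusted p = 4.57e-08 and 1.02e-06), and on library totals they shrank to 0.3 and 0.24, which were not called. Slc25a39 made up 94.9% or more of the counts per kb of the pair in each of the 20 libraries.

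**Figure D3:**
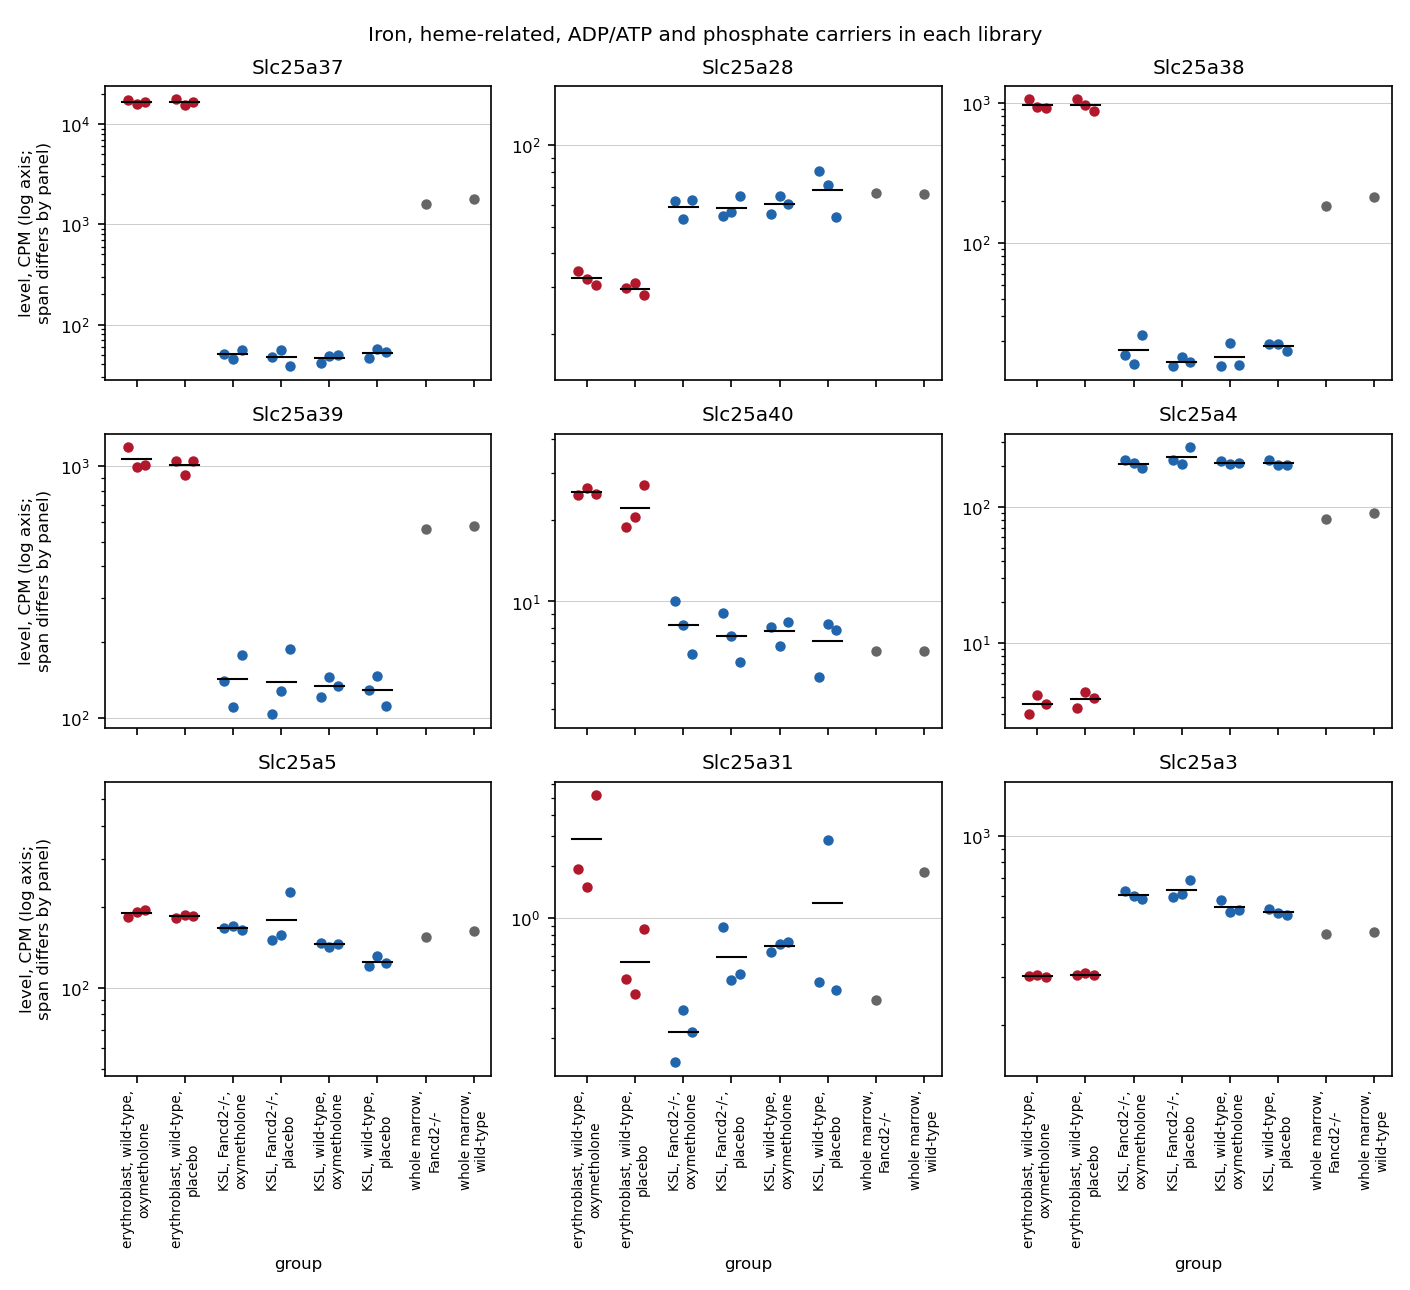
Level in CPM on a log axis of 9 carriers in every library, by group (red, erythroblasts; blue, KSL cells; grey, whole marrow); black bars are group means, and the span of the axis differs between panels. Slc25a37, Slc25a38 and Slc25a39 sit highest in erythroblasts, Slc25a4 and Slc25a3 highest in KSL cells, and whole marrow lies between for these 5.

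The ADP/ATP carriers showed the reverse kind of split. Slc25a4, the isoform best known from heart and skeletal muscle (chr8:47292698-47296363, minus strand), was at 2.98, 4.11 and 3.55 CPM in erythroblasts on oxymetholone, against 219, 208 and 212 CPM in KSL cells. On placebo it was at 3.31, 4.33 and 3.92 CPM in erythroblasts, against 223, 205 and 205 CPM in KSL cells. Erythroblasts lay below every KSL library, by log2 differences of -5.91 ± 0.13 on oxymetholone and -5.75 ± 0.14 on placebo (edgeR adjusted p = 2.24e-13 and 1.39e-14). Slc25a5, the isoform known from dividing cells (chrX:34335647-34338801, plus strand), stood at 183, 191 and 194 CPM in erythroblasts on oxymetholone, against 147, 142 and 146 CPM in KSL cells, and at 182, 187 and 185 CPM in erythroblasts on placebo, against 121, 131 and 124 CPM in KSL cells. With TMM it was called higher in erythroblasts, by 0.38 ± 0.08 and 0.58 ± 0.1 log2 (edgeR adjusted p = 0.000436 and 4.72e-05), but on library totals the values were -1.04 and -0.84, so its direction depends on the scaling. Slc25a31, the isoform known from male germ cells (chr3:40512793-40530016, plus strand), was near the floor in both populations, at 1.92, 1.52 and 5.18 CPM in erythroblasts on oxymetholone, against 0.636, 0.7 and 0.721 CPM in KSL cells. On placebo it was at 0.441, 0.361 and 0.86 CPM in erythroblasts, against 0.424, 2.86 and 0.382 CPM in KSL cells, where the second KSL library stood alone. It was called higher on oxymetholone (log2 2.05 ± 0.42, edgeR adjusted p = 0.000513; 0.64 and not called on library totals) and not on placebo (-1.37 ± 1.11, adjusted p = 0.277; 0.45 without that library). ADP/ATP carriers are close in sequence and have processed copies in the genome, and how reads matching several places were counted is not given in the sources used here.

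Within the pair Slc25a4 and Slc25a5, Slc25a4 made up 1.56 to 2.21% of the counts per kb in the 6 erythroblast libraries and 53.5 to 64.2% in the 12 KSL libraries. Whole marrow lay between, at 33.9% in the Fancd2-/- and 35.1% in the wild-type library. The ends of the annotated transcript that gave the length of Slc25a4 were 647 bases off the deposited transcript, against 2 bases for Slc25a5. Another length would move this share up or down in all libraries, and not change their order. Whether Slc25a4 would still be the larger part in KSL cells was not tested. Among KSL cells the share averaged 54.9% in Fancd2-/- KSL cells on oxymetholone (53.5 to 56.4%), 58.8% in wild-type KSL cells on oxymetholone (58.6 to 59.2%), 56.5% in Fancd2-/- KSL cells on placebo (54.1 to 58.8%) and 62.1% in wild-type KSL cells on placebo (60.4 to 64.2%). Fancd2-/- and wild-type libraries did not overlap in either diet, nor did oxymetholone and placebo libraries of wild-type mice. With 3 libraries against 3, each of these gave p = 0.1 in a two-sided exact permutation test, the smallest that design allows without the flow cytometer pairs, which the test left out of account, and 0.14 after Benjamini-Hochberg adjustment over the 7 comparisons of this share that were run. This share was chosen for testing after the values of both genes had been seen, and those comparisons share groups. Over all genes tested, levels did not overlap between the genotypes for 9.76% (higher in Fancd2-/- cells) and 15.1% (lower) on placebo. On oxymetholone the figures were 5.02% and 7.06%, and for oxymetholone against placebo in wild-type KSL cells 3.25% and 5.39%. No such figure was worked out for shares of pairs.

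**Figure D4:**
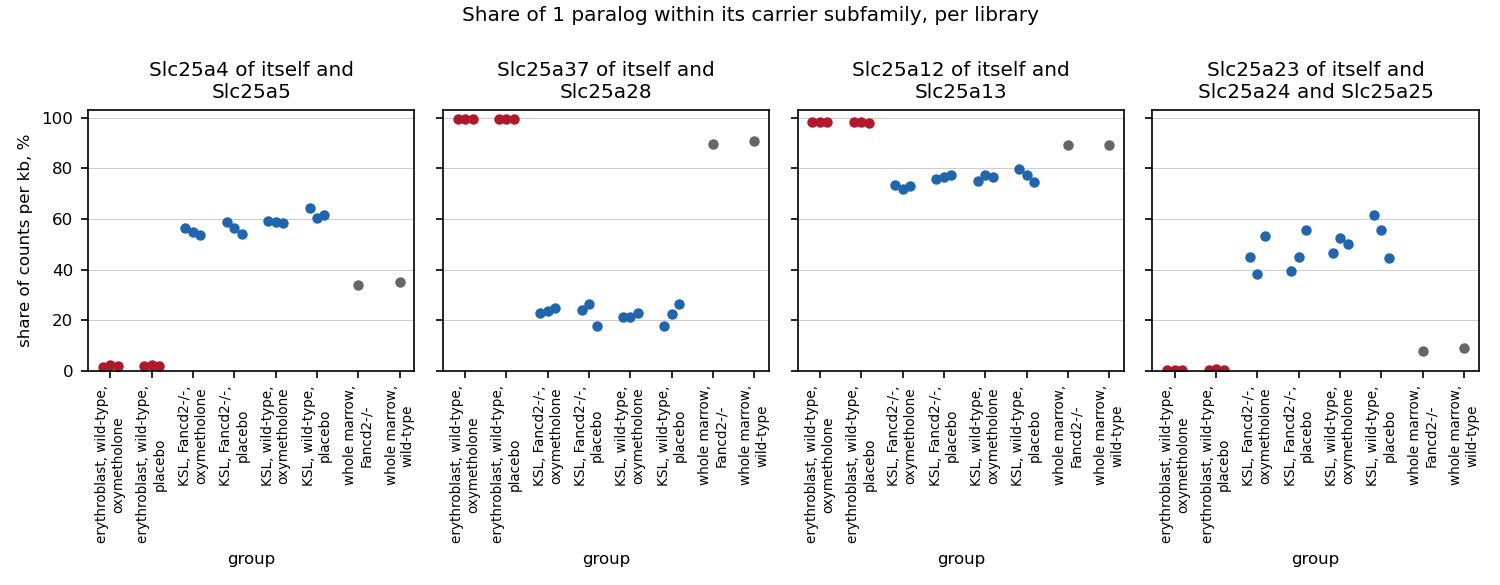
Share of 1 paralog in the counts per kb of its carrier subfamily, in percent, for every library by group (red, erythroblasts; blue, KSL cells; grey, whole marrow). Slc25a37 and Slc25a12 lie close to 100% and Slc25a4 and Slc25a23 close to 0% in erythroblasts, with KSL cells apart from them in each panel.

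The phosphate carrier Slc25a3 (chr10:90579323-90586708, minus strand) stood at 303, 306 and 300 CPM in erythroblasts on oxymetholone, against 579, 526 and 534 CPM in KSL cells. On placebo it stood at 305, 311 and 306 CPM in erythroblasts, against 539, 520 and 510 CPM in KSL cells. The 6 erythroblast libraries were nearly level with each other, and the log2 differences were -0.85 ± 0.08 and -0.75 ± 0.1 (edgeR adjusted p = 2.54e-07 and 2.48e-06). These differences are close to the median of all genes (-0.65 and -0.67).

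The calcium-regulated ATP-Mg/phosphate carriers, which set the adenine nucleotide pool of the matrix, differed among themselves. Slc25a24 averaged 133 CPM in erythroblasts on oxymetholone, against 33.4 CPM in KSL cells, a log2 difference of 1.98 ± 0.09, and Slc25a25 averaged 108 CPM, against 15.2 CPM (2.82 ± 0.1). Slc25a23 went the other way, at 0.48, 0.893 and 0.864 CPM in erythroblasts on oxymetholone, against 42.7, 53.5 and 48.1 CPM in KSL cells (log2 -6.01 ± 0.22, edgeR adjusted p = 1.99e-11). On placebo the log2 differences were 2.08 ± 0.15 for Slc25a24, 2.93 ± 0.11 for Slc25a25 and -5.52 ± 0.24 for Slc25a23. Of the counts per kb of these 3 genes, Slc25a23 made up 0.195 to 0.661% in erythroblasts and 38.2 to 61.7% in KSL cells. Slc25a41, a further ATP-Mg/phosphate carrier, reached 1 count in the placebo erythroblasts and 187 in the placebo KSL libraries, a ratio of 0.0411 (95% interval 0.00103 to 0.232, counting error only). Slc25a25 shares exon bases with Naif1 and Slc25a23 with Gm17168 on the opposite strand. So do, among members given below, Slc25a10 with Gm11788, Slc25a11 with Rnf167, Slc25a26 with Lrig1, Slc25a33 with Gm13068 and Slc25a46 with B930094E09Rik. Whether counting used strand is not given in the sources used here, so reads of such partners cannot be told apart.

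A like split held for the aspartate/glutamate exchangers of the malate-aspartate shuttle. Slc25a12 averaged 140 CPM in erythroblasts on oxymetholone, against 92.7 CPM in KSL cells, and Slc25a13 ranged from 2.79 to 3.36 CPM, against 34.6 to 39.5 CPM. Slc25a13 was lower by -3.63 ± 0.15 log2 on oxymetholone and -3.4 ± 0.18 on placebo (edgeR adjusted p = 6.99e-11 and 4.27e-11). Slc25a12 was higher by 0.59 ± 0.08 and 0.64 ± 0.1 with TMM and stood at -0.84 and -0.78 on library totals. Its share of the pair per kb, free of that choice, was 98.0 to 98.5% in erythroblasts and 71.7 to 79.6% in KSL cells. Of the glutamate carriers, Slc25a18 was low but higher in erythroblasts, at 2.4, 2.86 and 3.46 CPM on oxymetholone, against 0.0877, 0.0867 and 0.144 CPM in KSL cells (log2 4.88 ± 0.38), and Slc25a22 was lower, at 10.7 to 14.7 CPM, against 35.6 to 53.1 CPM (-1.8 ± 0.18). On placebo these log2 differences were 6.59 ± 0.53 for Slc25a18 and -1.78 ± 0.19 for Slc25a22. Slc25a18 had 4, 14 and 3 counts in the wild-type KSL libraries on oxymetholone and 5, 3 and 0 on placebo. The size of its differences therefore rests on few counts.

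Among carriers of di- and tricarboxylates, Slc25a21, which exchanges oxodicarboxylates of lysine and tryptophan breakdown (chr12:57813621-58298459, minus strand), was at 221, 211 and 208 CPM in erythroblasts on oxymetholone, against 0.0658, 0.235 and 0.144 CPM in KSL cells. On placebo it was at 193, 200 and 210 CPM in erythroblasts, against 0.262, 0.0647 and 0.318 CPM in KSL cells. No KSL library of any group exceeded 0.528 CPM, and the log2 differences were 10.11 ± 0.2 and 10.54 ± 0.3 (edgeR adjusted p = 1.34e-13 and 1.48e-12). Slc25a21 shares 189 exon bases with Pax9 on the opposite strand. The citrate carrier Slc25a1 averaged 18.8 CPM in erythroblasts on oxymetholone, against 115 CPM in KSL cells (log2 -2.62 ± 0.13; -2.68 ± 0.14 on placebo). The oxoglutarate/malate carrier Slc25a11, the other arm of the malate-aspartate shuttle, was at 58.7 to 66.2 CPM, against 163 to 173 CPM (-1.45 ± 0.09; -1.44 ± 0.11 on placebo). The dicarboxylate carrier Slc25a10 was at 89.0 to 90.4 CPM, against 33.1 to 40.3 CPM, with a log2 difference of 1.27 ± 0.1 (1.43 ± 0.14 on placebo) that came to -0.15 and 0.02 on library totals and was not called there.

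Other carriers of amino acids, and the carrier of fatty acid derivatives, were found on both sides. The ornithine carrier of the urea cycle, Slc25a15, was at 1.25, 1.16 and 0.096 CPM in erythroblasts on oxymetholone, against 29.3, 29.5 and 31.3 CPM in KSL cells (log2 -5.16 ± 0.32; -4.91 ± 0.22 on placebo), and the basic amino acid carrier Slc25a29 was at 0.192 to 0.536 CPM, against 2.46 to 4.39 CPM (-3.24 ± 0.43; -3.06 ± 0.37 on placebo). The carnitine/acylcarnitine carrier Slc25a20, which feeds fatty acid oxidation, was at 3.17, 4.29 and 3.26 CPM, against 54.7, 45.8 and 41.3 CPM (-3.73 ± 0.17; -3.35 ± 0.15 on placebo). Slc25a44, the branched-chain amino acid carrier, was higher, at 348, 328 and 336 CPM in erythroblasts on oxymetholone, against 41.7, 48.2 and 41.7 CPM in KSL cells (2.93 ± 0.1; 2.84 ± 0.1 on placebo, edgeR adjusted p = 8.51e-12 and 5.5e-13).

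Cofactor carriers fell on both sides. The coenzyme A carrier Slc25a42 was at 161, 144 and 155 CPM in erythroblasts on oxymetholone, against 8.79, 11.9 and 10.8 CPM in KSL cells (log2 3.85 ± 0.13; 3.79 ± 0.14 on placebo). Slc25a16, which has also been assigned to coenzyme A, was higher by 1.68 ± 0.12 on oxymetholone and 1.71 ± 0.16 on placebo and was not called on library totals (0.26 and 0.29). The S-adenosylmethionine carrier Slc25a26 (-3.63 ± 0.2 and -3.26 ± 0.25) and the folate/FAD carrier Slc25a32 (-0.76 ± 0.18 and -0.74 ± 0.21) were lower in both diets. The peroxisomal carrier Slc25a17 differed little, by -0.35 ± 0.1 and -0.26 ± 0.11, nearer to 0 than the median of all genes, and was not called with median-of-ratios size factors. Slc25a47 was called on placebo alone (0.8 ± 0.23, adjusted p = 0.00462, against 0.42 ± 0.26, adjusted p = 0.132 on oxymetholone, edgeR), and it was called lower on library totals in both diets (-0.61 on placebo and -0.99 on oxymetholone). Whether this difference between the populations changed with diet was not tested. The pyrimidine nucleotide carrier Slc25a33 was lower (-1.95 ± 0.18 and -2.21 ± 0.2), while its paralog Slc25a36 (-0.21 ± 0.17 and -0.13 ± 0.21) and the outer membrane protein Slc25a46 (0.14 ± 0.1 and 0.09 ± 0.12) were not called.

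The relatives of the uncoupling proteins differed among themselves. Slc25a27, also called UCP4, had 0 counts in 5 of 6 erythroblast libraries and 1 in the other, while KSL cells of wild-type mice held 8.5 to 10.9 CPM on oxymetholone and 10.4 to 11.6 CPM on placebo. On placebo, taking 3 counts over the group as the floor, it was at least 115-fold lower in erythroblasts. On oxymetholone its ratio was 0.00306 (95% interval 7.75e-05 to 0.0171, counting error only). Slc25a14 was lower (log2 -1.77 ± 0.21 on oxymetholone and -2.29 ± 0.29 on placebo), and Slc25a30 was called higher with TMM (1.13 ± 0.14 and 0.94 ± 0.15) but stood at -0.29 and -0.47 on library totals.

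Members of less certain substrate were lower where tested. Slc25a45 (chr19:5878466-5885768, plus strand) was at 0.673, 0.357 and 0.672 CPM in erythroblasts on oxymetholone, against 119, 129 and 121 CPM in KSL cells, and at 0.22, 0.901 and 1.15 CPM in erythroblasts on placebo, against 152, 142 and 123 CPM. Its log2 differences, -7.77 ± 0.17 and -7.45 ± 0.24 (edgeR adjusted p = 3.21e-13 and 1.76e-13), put it further below KSL cells than Slc25a4. Slc25a43 had 0 counts in all 6 erythroblast libraries and was at least 18.1-fold lower on oxymetholone and 13.3-fold lower on placebo, against a floor of 3 counts over the group. Slc25a35 was lower (-1.92 ± 0.28 and -2.23 ± 0.29), but 1151 of its exon bases lie over Rangrf on the opposite strand. Slc25a2, Slc25a34 and Slc25a48 had too few counts to be tested in either diet, and Slc25a41 too few on oxymetholone.

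Genes outside the family, from lists chosen for their link to it, put these values beside their pathways. Their counts are to be read against all genes tested, of which 37.5% were higher and 53.9% lower on oxymetholone. On placebo those shares were 37.2% and 53.7%. Of the 9 heme synthesis enzymes, 8 were higher and 1 lower in erythroblasts in each diet. The erythroid form of the first enzyme, Alas2, averaged 11200 CPM in erythroblasts on oxymetholone, against 0.326 CPM in KSL cells, while its housekeeping form Alas1 averaged 12.9 CPM, against 49.4 CPM (log2 -1.94 ± 0.12). The 13 other inner membrane transporters found in the table divided into 7 higher and 6 lower in both diets. Among them were the heme-linked Abcb10, which binds mitoferrin 1 (4670 CPM in erythroblasts on oxymetholone, against 35.0 CPM in KSL cells), and Tmem14c (1450 against 71.5 CPM), both higher, and sideroflexin Sfxn3 (7.6 against 54.9 CPM), lower. Of 14 subunits of the TOM and TIM machinery that imports carriers into mitochondria, 2 were higher and 11 lower on oxymetholone, and 2 were higher and 10 lower on placebo. Ucp2, a family member by sequence, averaged 6680 CPM in erythroblasts on oxymetholone, against 543 CPM in KSL cells (log2 3.61 ± 0.09), and 6490 CPM on placebo, against 518 CPM (3.66 ± 0.13). Mtch2 was higher and Mtch1 lower in both diets, the value of Mtch2 turning to -0.87 and -0.82 on library totals. In none of these 4 lists was a gene called by edgeR for oxymetholone in erythroblasts or in KSL cells of either genotype, or for genotype on either diet.

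Markers of other marrow cells differed in both directions. Of all genes tested, 37.5% were called higher and 53.9% lower on oxymetholone, and 37.2% and 53.7% on placebo. No tested marker of B cells, T and NK cells, mast cells and basophils or stroma was called higher in either diet. Lower in each diet were 3 of 4 B cell markers and 1 of 2 T and NK cell markers. The same held for 2 of 2 mast cell and basophil and 2 of 2 stromal markers. Of 5 megakaryocyte markers, 1 was called higher and 4 lower. Of 8 macrophage markers, 7 were called higher in erythroblasts in each diet, their sum being 80.4 to 169 CPM in erythroblasts and 22.1 to 29.2 CPM in wild-type KSL cells. Of 7 neutrophil markers, 6 were called higher and Mpo lower, with sums of 284 to 513 CPM in erythroblasts and 712 to 1210 CPM in wild-type KSL cells. Mpo made up most of that KSL sum, at 670 to 1190 CPM, against 8.93 to 22.0 CPM in erythroblasts. Of the 6 others, S100a9 for example was at 74.5 to 131 CPM in erythroblasts and 5.11 to 15.3 CPM in wild-type KSL cells. All 8 macrophage and all 7 neutrophil markers had counts in at least 1 erythroblast library of each diet. Their part in the values of individual carriers was not tested.

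Over all 20 libraries the genes whose log2(CPM + 1) followed that of Slc25a37 most closely, of 11966 compared, were Cpox (Pearson r = 0.9997), Fhdc1, Ypel4, Mylk3 and Carhsp1 (0.9992). For Slc25a38 they were Ranbp10 (0.9987), Ppox, Slc25a37 (0.9984), Slc22a23 and Ache (0.9983). The libraries form separate populations and share their depth scaling, so these values describe the contrast between populations and carry no test.

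Oxymetholone was next compared with placebo in erythroblasts. No member of 34 tested was called in either direction, nor was any of the 9694 genes tested (0.0% called higher and 0.0% lower, edgeR quasi-likelihood test). At an unadjusted p under 0.05 there were 1 member higher and 1 lower (1.27% of all genes in either direction). The heme-related carriers differed by less than their SE: Slc25a37 averaged 16500 CPM on oxymetholone and 16500 CPM on placebo (log2 -0.02 ± 0.06), Slc25a38 971 and 965 CPM (-0.01 ± 0.08) and Slc25a39 1060 and 1010 CPM (0.06 ± 0.07). Slc25a28 gave 0.11 ± 0.09, Slc25a40 0.18 ± 0.13, Slc25a4 -0.14 ± 0.22, Slc25a5 0.02 ± 0.06 and Slc25a3 -0.04 ± 0.05. The member with the smallest p was Slc25a31, at 1.92, 1.52 and 5.18 CPM on oxymetholone, against 0.441, 0.361 and 0.86 CPM on placebo. Its groups did not overlap, which 4.1% of all genes shared in that direction, and its log2 difference of 2.32 ± 0.58 had an edgeR adjusted p of 1.0. On the lower side Slc25a47 followed, at 5.57, 3.21 and 3.94 CPM on oxymetholone, against 7.06, 5.5 and 5.93 CPM on placebo (-0.56 ± 0.22, edgeR adjusted p = 1.0). By p, Slc25a30 (0.2 ± 0.12) and Slc25a40 came next among the higher, and Slc25a20 (-0.4 ± 0.21) and Slc25a18 (-0.38 ± 0.24) among the lower. The groups of Slc25a20 did not overlap, as held for 2.2% of all genes in that direction.

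In KSL cells oxymetholone was compared with placebo within pairs that shared a flow cytometer setting. No member of 41 tested was called in Fancd2-/- cells or in wild-type cells, nor was any of the 13259 genes (0.0% in each direction), and no member reached an unadjusted p under 0.05 in either genotype, while 6.81% of genes did in Fancd2-/- and 2.69% in wild-type cells. In Fancd2-/- KSL cells Slc25a37 stood at 50.8, 44.9 and 56.3 CPM on oxymetholone, against 47.2, 55.6 and 38.3 CPM on placebo (log2 0.11 ± 0.14). In wild-type KSL cells it stood at 41.1, 48.4 and 49.2 CPM on oxymetholone, against 46.9, 57.2 and 52.9 CPM on placebo (-0.17 ± 0.14). The groups overlapped in both genotypes. Slc25a38 gave 0.25 ± 0.16 in Fancd2-/- and -0.26 ± 0.16 in wild-type cells, and the difference of the 2 effects, 0.5 ± 0.23, had an unadjusted edgeR p under 0.05 and an adjusted p of 0.953. For the other followed carriers the log2 effects in Fancd2-/- and in wild-type cells were 0.0 ± 0.14 and -0.16 ± 0.14 for Slc25a28, 0.05 ± 0.14 and 0.07 ± 0.14 for Slc25a39, and 0.12 ± 0.18 and 0.15 ± 0.18 for Slc25a40. They were -0.17 ± 0.13 and 0.03 ± 0.13 for Slc25a4, -0.07 ± 0.14 and 0.22 ± 0.14 for Slc25a5, -1.3 ± 0.62 and -0.44 ± 0.59 for Slc25a31, and -0.07 ± 0.11 and 0.07 ± 0.11 for Slc25a3. Groups without overlap were few: Slc25a13 higher (2.99% of all genes) and Slc25a14 and Slc25a31 lower (4.07%) in Fancd2-/- cells, and Slc25a5 higher (3.25%) and Slc25a35 lower (5.39%) in wild-type cells.

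Among members of at least 1 CPM, those nearest to a call in Fancd2-/- cells on oxymetholone were Slc25a27 (0.51 ± 0.24), Slc25a22 (0.31 ± 0.15) and Slc25a42 (0.34 ± 0.2) on the higher side and Slc25a14 (-0.25 ± 0.17), Slc25a17 (-0.19 ± 0.13) and Slc25a4 on the lower, all with edgeR adjusted p of 0.688 or more. In wild-type cells they were Slc25a10 (0.19 ± 0.11), Slc25a5 and Slc25a16 (0.17 ± 0.16), and on the lower side Slc25a38, Slc25a35 (-0.28 ± 0.2) and Slc25a45 (-0.16 ± 0.12), at adjusted p of 0.999. The test of whether the oxymetholone effect differed between genotypes called 0 of 41 members and 0 of 13259 genes (0.0%), and 2 members had an unadjusted p under 0.05, as had 3.45% of all genes. Slc25a22, the glutamate carrier, gave the smallest p there: its difference of effects was 0.5 ± 0.21, with an edgeR adjusted p of 0.953. The pair that holds Fancd2-/- placebo replicate 3, the library that stood apart, gave the highest Fancd2-/- change for Slc25a22 (0.77, against 0.33 and -0.19 in the other pairs), Slc25a27 (1.09, against -0.34 and 0.54), Slc25a42 (0.98, against 0.18 and -0.24) and Slc25a38 (0.61, against 0.25 and -0.16). Without that pair the difference of effects was 0.28 ± 0.17 for Slc25a22 and 0.31 ± 0.22 for Slc25a38, and the effect in Fancd2-/- cells was 0.1 ± 0.13 for Slc25a22, 0.16 ± 0.23 for Slc25a27 and -0.01 ± 0.17 for Slc25a42. With all pairs the difference of effects of Slc25a27 was 0.71 ± 0.33, while Slc25a5 gave -0.3 ± 0.2, Slc25a10 -0.22 ± 0.16 and Slc25a17 -0.25 ± 0.19.

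**Figure D5:**
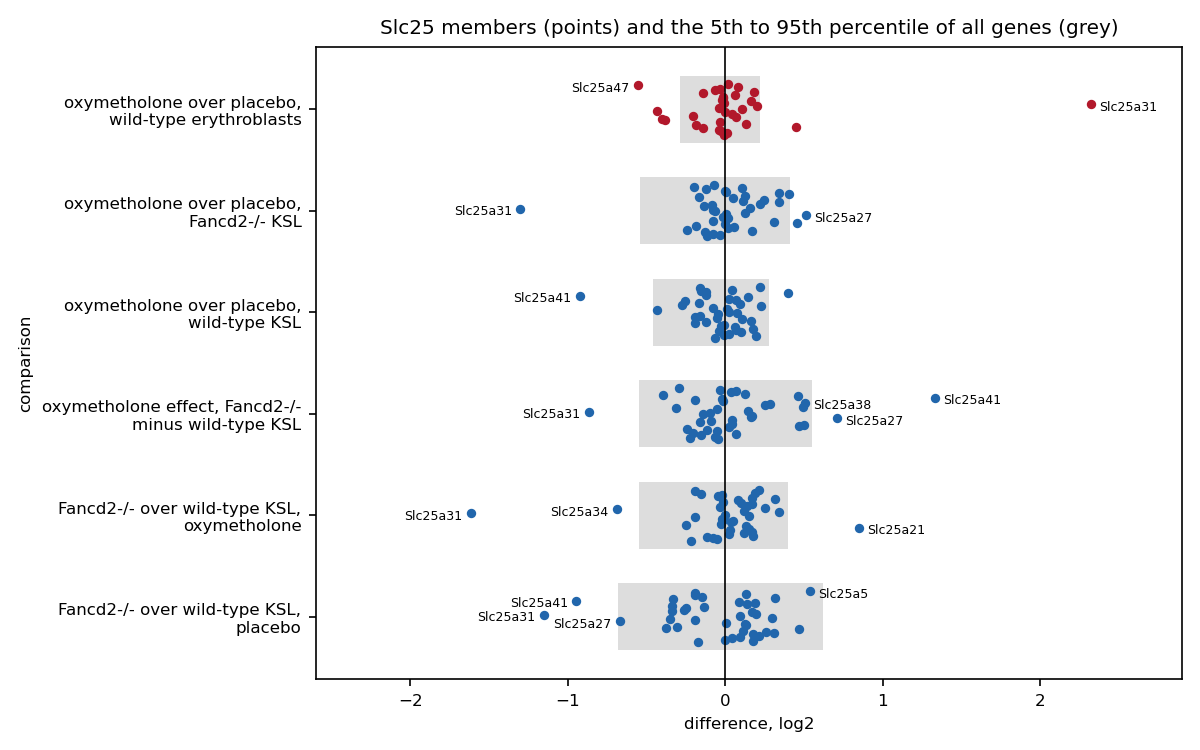
Log2 difference of the members tested, 1 left out (points; red, erythroblasts; blue, KSL cells) in 6 comparisons of diet and genotype, over the 5th to 95th percentile of all genes tested (grey). Most members lie inside the grey range, and Slc25a31, at 5.18 CPM or less, lies outside it in 5 of the 6 and Slc25a5 inside it in the Fancd2-/- against wild-type comparison on placebo.

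Fancd2-/- and wild-type KSL cells were compared within each diet. On placebo, 0 of 41 members were called, while 0.505% of the 13259 genes were called higher and 0.777% lower (1.28% together). At an unadjusted p under 0.05 there were 2 members higher and 1 lower, against 19.6% of all genes in either direction. Slc25a5 came closest. It stood at 151, 157 and 227 CPM in Fancd2-/- libraries, against 121, 131 and 124 CPM in wild-type libraries, with no overlap, and its log2 difference was 0.54 ± 0.15 (edgeR adjusted p = 0.0837). The highest value came from Fancd2-/- replicate 3, the library that stood apart, and without it the difference was 0.31 ± 0.09 (edgeR adjusted p = 0.156). Without Fancd2-/- replicate 1 the difference was 0.66 ± 0.15 and passed (adjusted p = 0.046), and DESeq2 and limma voom also called it, at 0.57 ± 0.16 (adjusted p = 0.0152) and 0.33 ± 0.09 (adjusted p = 0.0305).

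The phosphate carrier Slc25a3 stood at 594, 610 and 687 CPM in Fancd2-/- libraries on placebo, against 539, 520 and 510 CPM in wild-type libraries. These groups did not overlap either, a property shared by 9.76% of all genes in that direction. The log2 difference was 0.3 ± 0.11 (edgeR adjusted p = 0.163), or 0.22 ± 0.1 without replicate 3. DESeq2 called Slc25a3, at 0.32 ± 0.11 (adjusted p = 0.0424). Slc25a27 was at 9.47, 6.34 and 4.54 CPM in Fancd2-/- libraries, against 10.5, 11.6 and 10.4 CPM in wild-type libraries (-0.67 ± 0.23, edgeR adjusted p = 0.148), or -0.45 ± 0.22 without replicate 3. It passed by limma voom (-0.73 ± 0.17, adjusted p = 0.0132) and without replicate 1 (-0.97 ± 0.21, adjusted p = 0.0363). The ranking went on with Slc25a17 (0.26 ± 0.15) on the higher side and Slc25a22 (-0.38 ± 0.18) and Slc25a38 (-0.34 ± 0.19) on the lower. In all, 3 members were higher and 7 lower with no overlap between the genotypes, against 9.76% and 15.1% of all genes, shares near the background.

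Of the other carriers followed, Slc25a37 averaged 47.0 CPM in Fancd2-/- and 52.3 CPM in wild-type KSL cells on placebo (-0.13 ± 0.14, or -0.24 ± 0.16 without Fancd2-/- replicate 2, which held the highest erythroid marker sum), Slc25a28 58.8 and 68.6 CPM (-0.2 ± 0.15), Slc25a39 139 and 129 CPM (0.14 ± 0.21), Slc25a40 7.47 and 7.12 CPM (0.09 ± 0.23), Slc25a4 235 and 211 CPM (0.19 ± 0.13) and Slc25a31 0.595 and 1.22 CPM (-1.15 ± 0.63). Slc25a31 rested on the wild-type library at 2.86 CPM: without it the difference was 0.56.

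On oxymetholone no member was called between the genotypes, while 0.0302% of the genes were called higher and 0.098% lower (0.128% together), and 1 member had an unadjusted p under 0.05, as had 5.57% of all genes. Slc25a5 stood at 167, 170 and 164 CPM in Fancd2-/- libraries, against 147, 142 and 146 CPM in wild-type libraries. The groups were again apart, as held for 5.02% of all genes in that direction, with a log2 difference of 0.21 ± 0.15 (edgeR adjusted p = 0.999). Slc25a3 stood at 627, 600 and 583 CPM in Fancd2-/- libraries, against 579, 526 and 534 CPM in wild-type libraries (0.15 ± 0.11), also with no overlap. Slc25a31 was at 0.144, 0.289 and 0.216 CPM in Fancd2-/- libraries, against 0.636, 0.7 and 0.721 CPM in wild-type libraries (-1.61 ± 0.69, edgeR adjusted p = 0.812), and lower without overlap was shared by 7.06% of all genes. Slc25a32 (0.34 ± 0.21) ranked first on the higher side and Slc25a23 (-0.25 ± 0.18), Slc25a45 (-0.16 ± 0.12) and Slc25a1 (-0.22 ± 0.17) led the lower side among members of at least 1 CPM. Slc25a37 (0.14 ± 0.14), Slc25a38 (0.17 ± 0.19), Slc25a39 (0.1 ± 0.21), Slc25a40 (0.08 ± 0.23), Slc25a28 (-0.02 ± 0.15) and Slc25a4 (-0.02 ± 0.13) lay at most about 1 SE from 0.

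Whole marrow had 1 library per genotype, so its ratios have no replicate check, and their intervals cover counting error only. Over the 38 members with at least 100 counts in a library the median ratio of Fancd2-/- to wild-type was 0.985, beside 1.0 over all 11819 such genes. None of them was past 1.5-fold higher and 1 was past it lower, against 0.795% and 0.618% of genes. That member was Slc25a31, with 30 counts in the Fancd2-/- library and 157 in the wild-type library (ratio 0.179, 95% interval 0.117 to 0.266). Slc25a37 measured 1590 CPM in Fancd2-/- and 1780 CPM in wild-type marrow (0.892, 0.886 to 0.899). For Slc25a38 the values were 182 CPM in Fancd2-/- and 212 CPM in wild-type marrow (0.859, 0.841 to 0.877), and for Slc25a39 562 and 577 CPM (0.976, 0.963 to 0.988). The erythroid markers summed to 32400 CPM in Fancd2-/- and 33700 CPM in wild-type marrow, and the neutrophil markers to 124000 and 116000 CPM, and the part of these sums in the carriers' ratios was not tested. Slc25a20 had the highest ratio (31.2 and 24.1 CPM; 1.29, 1.22 to 1.37). The ratios were 0.867 for Slc25a10, 0.901 for Slc25a1, 0.909 for Slc25a4, 0.955 for Slc25a5, 0.98 for Slc25a3, 1.0 for Slc25a40 and 1.01 for Slc25a28, so values like that of Slc25a37 were also found outside the heme-related carriers.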

How the data were processed

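RNA-seq of mouse KSL cells, erythroblasts and whole marrow was used as deposited. Per the labels' protocols, libraries were made from oligo(dT)-selected RNA with an Illumina TruSeq kit and read as 51 bases; per the submitters' processing notes, reads were mapped to mm9 with Bowtie and analysed with edgeR, whereas the sources used here do not give the counting tool, its use of strand or how it treated reads that match several places. The count table deposited by the authors holds raw counts for 26005 transcript rows. A second deposited matrix, a score, equals the authors' counts scaled to 1 common total and rounded (largest gap 0.5), and served only as an alternative.

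For each of 20377 symbols the row with the largest total was kept. Tests used edgeR 4.0.16 in R 4.3.3 (TMM, filterByExpr, robust quasi-likelihood test, Benjamini-Hochberg adjustment over all genes tested, call at adjusted p under 0.05). The SE beside an edgeR difference is the absolute log2 difference divided by the square root of the test's F statistic. It is therefore approximate, most of all for large differences. Erythroblasts were compared with wild-type KSL cells on the same diet, oxymetholone with placebo in erythroblasts and in each KSL genotype, and Fancd2-/- with wild-type KSL cells on each diet. The oxymetholone effects in KSL cells and their difference between genotypes were fitted over all 12 KSL libraries with the flow cytometer pair as a block. The pairing comes from the series' design text. The column numbered here as Fancd2-/- placebo replicate 1 has a name that matches no sample title exactly; that text gives it as a placebo library of Fancd2-/- KSL cells, and it was taken for the closest title of that group. Deviations within pairs correlated at -0.0286 to 0.568 over 10080 genes. DESeq2 1.42.0 and limma 3.58.1 (voom), other scalings, no filter, summed rows, a removed length trend and leaving out each library or pair were alternatives. Library totals as the only scaling were added after seeing the data. Steps were tested on simulated data with a common profile for all libraries, no pair effect and changes in few genes, none of low count. Of genes changed by 1 on the log2 scale, 90% were recovered for erythroblasts against KSL cells on placebo and 89% for oxymetholone in erythroblasts. For oxymetholone in Fancd2-/- KSL cells 73% were recovered, and 70% for genotype on placebo. In that order, 7.8%, 6.9%, 6.63% and 2.98% of the calls were false. The real erythroblast contrast on placebo called 91.0% of genes, so its recovery was not measured by this simulation, nor was that of members with few counts.

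Whole marrow ratios carry exact intervals for counting error only. Transcript lengths were read from GENCODE annotation, where all 44 members had a length. The ends of the annotated transcript could differ from the deposited one, by 647 bases for Slc25a4 and 1977 for Slc25a10, for example. Promoters were read from mm9 at the starts of the deposited transcripts. Of the 3 printed windows, that of Slc25a39 had the same letters in a separate RefSeq promoter set. Those of Slc25a38 and Slc25a4 did not. Named members were those called, up to 12 per direction, with a mean of at least 1 CPM, and otherwise the 3 with the smallest p per direction, besides 9 carriers followed throughout. The members and lists were chosen with earlier results of these data known. KSL libraries are separate pools of mice and erythroblast libraries separate mice. KSL depth varied more than 10-fold, and shallow libraries limit members of a few counts most. Values of 1 member and 1 promoter are not reported here.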

Additional observations from a re-analysis of the deposited data

How the results depend on the processing

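Of the alternative values for single members, 1754 kept direction and side of the threshold, 8 passed it newly, 10 no longer passed and 62 changed sign, and the cause was not tested. In erythroblasts against KSL cells, 9 members were called higher on oxymetholone and 9 on placebo with library totals alone, and 9 on placebo by limma on the scaled matrix. With each library left out in turn there were 16 to 18 members higher and 21 to 22 lower on oxymetholone, and 16 higher and 21 to 22 lower on placebo. On library totals and on the scaled matrix Slc25a5 was -1.04 and -0.99 on oxymetholone and -0.84 and -0.8 on placebo, and Slc25a10 was -0.15 and -0.1 on oxymetholone. For genotype on placebo 2 members were called higher by DESeq2, 1 higher and 1 lower by limma voom, and 0 to 1 in each direction without a library. Voom called 1 member lower for oxymetholone in wild-type KSL cells, Slc25a31 (-1.65 ± 0.34, adjusted p = 0.0392). Without the replicate block no member was called for oxymetholone in KSL cells of either genotype, Slc25a37 being at 0.11 in Fancd2-/- and -0.17 in wild-type cells, and no other call changed. For oxymetholone in Fancd2-/- KSL cells Slc25a28 was -0.0 with median-of-ratios and with DESeq2, Slc25a5 was 0.07 by voom and 0.02 with the length trend removed, and Slc25a3 was 0.01 and 0.0. In wild-type cells Slc25a40 was -0.11 by voom. The difference of effects for Slc25a39 was 0.01 on library totals, 0.05 by voom, 0.01 on the scaled matrix and 0.03 with the length trend removed, for Slc25a40 0.01 on library totals and 0.26 by voom, and for Slc25a31 0.22 by voom. For genotype, voom gave Slc25a39 -0.02 and Slc25a4 0.03 on oxymetholone and Slc25a39 -0.08 on placebo. Leaving out a library or pair moved further log2 values over 0. For erythroblasts against KSL cells on placebo, log2 ranged over -1.81 to 0.45 for Slc25a31. For oxymetholone in erythroblasts, log2 ranged over -0.06 to 0.04 for Slc25a37, -0.09 to 0.06 for Slc25a38 and -0.02 to 0.1 for Slc25a39. For oxymetholone in Fancd2-/- KSL cells, log2 ranged over -0.08 to 0.31 for Slc25a37, -0.08 to 0.07 for Slc25a28, -0.14 to 0.16 for Slc25a39, -0.28 to 0.04 for Slc25a4, -0.19 to 0.16 for Slc25a5, -0.14 to 0.05 for Slc25a3 and -0.01 to 0.63 for Slc25a42. For oxymetholone in wild-type KSL cells, log2 ranged over -0.3 to 0.02 for Slc25a28, -0.01 to 0.13 for Slc25a39, -0.1 to 0.39 for Slc25a40, -0.95 to 0.75 for Slc25a31 and -0.04 to 0.3 for Slc25a16. For the difference of oxymetholone effects, log2 ranged over -0.03 to 0.3 for Slc25a28, -0.23 to 0.08 for Slc25a39, -0.27 to 0.21 for Slc25a40 and -0.32 to 0 for Slc25a4. For genotype on placebo, log2 ranged over -0.15 to 0.33 for Slc25a39, -0.08 to 0.23 for Slc25a40 and -1.53 to 0.56 for Slc25a31. For genotype on oxymetholone, log2 ranged over -0.07 to 0.05 for Slc25a28, -0.03 to 0.38 for Slc25a38, -0.07 to 0.26 for Slc25a39, -0.09 to 0.26 for Slc25a40 and -0.06 to 0.05 for Slc25a4. Members under 1 CPM rest on few counts in most libraries.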

Other observations

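Heme synthesis is the pathway that the iron and glycine carriers supply. Of its 9 enzymes, 8 were higher in erythroblasts and Alas1 was lower on both diets. Of all genes tested, 37.5% were higher on oxymetholone and 37.2% on placebo. The median log2 difference of the 9 was 5.93 on oxymetholone and 5.87 on placebo, below the 13.05 and 11.97 of the 10 erythroid markers. Alad, which forms porphobilinogen in the cytosol, averaged 3930 CPM in erythroblasts on oxymetholone, against 124 CPM in KSL cells (log2 4.98 ± 0.09). Cpox, which sits between the membranes of the mitochondrion, averaged 4690 CPM, against 40.3 CPM (6.85 ± 0.11), and Fech, which inserts iron into the ring, 7260 CPM, against 54.2 CPM (7.07 ± 0.11). On placebo the differences were 4.97 ± 0.15 for Alad, 6.92 ± 0.15 for Cpox and 7.09 ± 0.15 for Fech.

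Timm9 and Timm10, small chaperones that hand carriers across the intermembrane space, were lower. Timm9 averaged 2.53 CPM in erythroblasts on oxymetholone, against 32.6 CPM in KSL cells (log2 -3.69 ± 0.17), and its partner Timm10 12.8 CPM, against 31.6 CPM (-1.31 ± 0.12). Timm22, the channel that inserts carriers into the inner membrane, averaged 29.9 CPM, against 65.9 CPM (-1.15 ± 0.11). On placebo the differences were -3.6 ± 0.2 for Timm9, -1.24 ± 0.18 for Timm10 and -1.18 ± 0.13 for Timm22. Both subunits called higher, Tomm22 (0.82 ± 0.1 on oxymetholone) and Timm8b (0.94 ± 0.12), stood at -0.6 and -0.48 on library totals.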
